A study of Macaca mulatta with 24 samples.

Results

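The genes described here are 10 markers of vascular smooth muscle cells and pericytes, taken by name from the 32386 genes counted in omental white adipose tissue (WAT), a visceral fat depot, of rhesus macaques. They are *ACTA2*, *TAGLN*, *MYH11*, *CNN1* and *DES*, which encode contractile and filament proteins, and *RGS5*, *PDGFRB*, *NOTCH3*, *CSPG4* and *MCAM*, which encode signalling and surface proteins. They were listed by name as markers of these cells, with earlier results of these data known, so their share of calls is a description. Each was matched to 1 Ensembl gene identifier, and all 10 were among the 15207 genes that passed the filter on low counts.

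The study asked how mild testosterone excess and a high-fat Western-style diet (WSD), alone and together, alter visceral fat in female macaques. All 24 animals were young females and each carried an implant for 3 years. The 6 controls (*C*) had cholesterol implants and monkey chow, and the 6 animals of *T* had testosterone implants and chow. The 6 animals of *WSD* had cholesterol implants and the high-fat diet, and the 6 of *T* + *WSD* had testosterone implants and the high-fat diet. The labels give an age of 4 years for all animals, while the methods of the study give a higher one. Each library was made from frozen biopsy tissue of 1 animal, so that values are levels in a mixture of fat, vascular, stromal and surface cells. The methods also state that the animals sequenced were picked as representative of their group, which limits how far they stand for all animals treated.

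Blood vessels are wrapped by mural cells. Smooth muscle cells surround arteries and veins and contract through actin and smooth muscle myosin, while pericytes lie on capillaries, which they support and help to regulate. Endothelial cells recruit pericytes with platelet-derived growth factor, sensed by the receptor PDGFRB, and Notch signals between endothelial and mural cells keep the mural cells differentiated. In adipose tissue, cells along the vessel wall also include precursors of new adipocytes.

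Total counts per library ran from 6899185 to 28270776. In 8 libraries, 2 in each group, the gene ENSMMUG00000038258 took 9.92 to 54.7% of all counts, and in the other 16 it took 0.879 to 2.51%. Levels are given below as CPM (counts scaled to a library total of 1000000) after TMM normalization, which corrects for depth and for such a dominant gene, and they are compared only within a gene. The adipocyte markers tested, 7 genes that include *ADIPOQ* and *PLIN1*, summed to between 2682 and 16138 CPM in the 24 animals. All 10 smooth muscle and pericyte genes were counted in every animal, with the lowest count, 75 reads, for *CNN1* in *T* + *WSD*. Fewer cells of a type and less RNA per cell cannot be told apart in bulk tissue.

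Levels in *T* + *WSD* were set against *C* first, as the comparison of both treatments with none. *TAGLN*, *RGS5*, *NOTCH3* and *MCAM* were called higher, by 2.07- to 2.29-fold, and none of the 10 genes was called lower. *DES* had the lowest fold change, 0.48, and was not called. A gene was called when edgeR's adjusted p was under 0.05 and its fold change over 1.5. Of all 15207 genes tested, 10% were called, 4.72% as higher and 5.29% as lower, beside 4 of the 10 smooth muscle and pericyte genes as higher and 0 as lower. At an unadjusted p under 0.05, 7 of the 10 genes passed, beside 32.1% of all genes. Of these, 6 were higher, beside 13.7% of all genes, and 1, *DES*, was lower. The median log2 fold change of the 10 genes was 0.65, beside -0.04 over all genes tested.

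**Figure D1:**
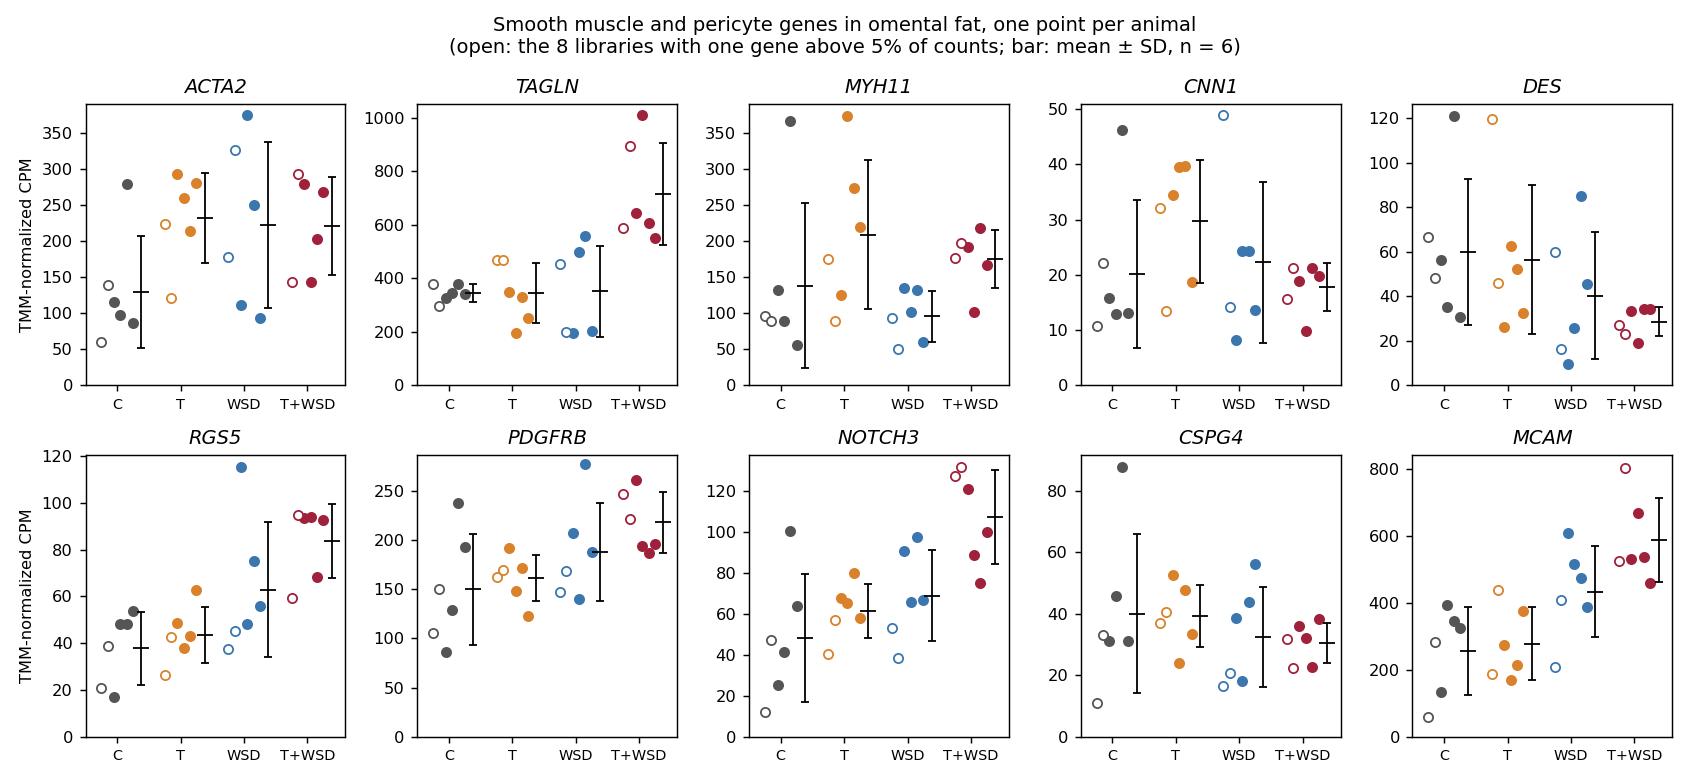
Level of each gene (TMM-normalized CPM, y axis, separate scale for each gene) by group, with 1 point per animal. Horizontal ticks and bars show the mean ± SD of 6 animals, and open points are the 8 libraries in which 1 gene took over 5% of the counts. All 6 *T* + *WSD* animals lie above all 6 controls for TAGLN, RGS5 and MCAM, while a single control reaches 279 CPM for ACTA2 and 366 CPM for MYH11.

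*TAGLN* (ENSMMUG00000002058) encodes transgelin, an actin-binding protein that appears early in smooth muscle differentiation. Its levels in the 6 controls were 295, 328, 341, 345, 380 and 381 CPM, and in *T* + *WSD* they were 549, 587, 607, 643, 896 and 1012 CPM. The groups did not overlap, and the controls lay close together, with an SD of 32.5 around a mean of 345 CPM (n = 6). The log2 fold change was 1.05 ± 0.27 (SE), with an adjusted p of 0.0121 in edgeR. Animals given *T* alone had a median of 341 CPM (196 to 470), and those given *WSD* alone a median of 329 CPM (197 to 558). Neither single treatment thus shifted the middle of the group away from the control median of 343 CPM, although both groups spread to lower and higher values than any control.

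The other contractile and filament genes were not called in *T* + *WSD* against *C*. *ACTA2* (ENSMMUG00000009341), which encodes smooth muscle alpha-actin, ran from 59.7 to 279 CPM in *C* (median 107) and from 143 to 293 CPM in *T* + *WSD* (median 235). The 6 *T* + *WSD* animals exceeded 5 of the 6 controls, and the remaining control, replicate 5, lay among the highest of them. For *ACTA2* the log2 fold change was 0.77 ± 0.35 (SE), with an edgeR adjusted p of 0.134.

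*MYH11* (ENSMMUG00000010367), the smooth muscle myosin heavy chain and the most selective marker of contractile smooth muscle in the set, ran from 56.0 to 366 CPM in *C* (median 92.8) and from 101 to 218 CPM in *T* + *WSD* (median 184). The 366 CPM came from control replicate 5, and the next control had 132 CPM. With all animals the log2 fold change was 0.34 ± 0.39 (SE) and the edgeR adjusted p was 0.581. *CNN1* (ENSMMUG00000001473), calponin 1, a regulator of actomyosin, had a median of 14.4 CPM in *C* (10.8 to 46.3) and of 19.4 CPM in *T* + *WSD* (9.86 to 21.3). Its log2 fold change was -0.18 ± 0.39 (SE), with an edgeR adjusted p of 0.795, and the groups overlapped.

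*DES* (ENSMMUG00000017933), desmin, the intermediate filament of muscle cells, had the lowest log2 fold change of the set. Its levels in *C* were 30.9, 35.3, 48.4, 56.3, 66.6 and 121 CPM, and in *T* + *WSD* they were 19.3, 22.9, 27.1, 33.2, 34.5 and 34.5 CPM. Of the *T* + *WSD* animals, 3 lay below every control and the other 3 within the control range. *DES* had a log2 fold change of -1.06 ± 0.44 (SE) and an edgeR adjusted p of 0.0979. In a fit of these 12 animals alone the same fold change had an adjusted p of 0.0351, so that the call for *DES* differed between the fits. The cause of that difference was not tested.

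Among the signalling and surface genes, *RGS5* (ENSMMUG00000005186), which encodes a regulator of G protein signalling used as a pericyte marker, was called higher. Its levels in *C* were 16.8, 20.9, 38.9, 48.0, 48.3 and 53.6 CPM, and in *T* + *WSD* they were 59.1, 68.1, 92.7, 93.3, 93.8 and 94.7 CPM. The groups did not overlap, and 4 of the 6 *T* + *WSD* animals had 92.7 to 94.7 CPM. This gave a log2 fold change of 1.15 ± 0.29 (SE) and an edgeR adjusted p of 0.0111.

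*MCAM* (ENSMMUG00000004764), the adhesion molecule CD146, is carried by pericytes and also by endothelial cells. Its levels in *C* were 60.2, 134, 283, 325, 346 and 393 CPM, and in *T* + *WSD* they were 460, 527, 531, 537, 669 and 805 CPM. All 6 *T* + *WSD* animals again lay above all 6 controls, and the controls were spread widely, with replicates 1 and 3 far below the rest. For *MCAM* the log2 fold change was 1.19 ± 0.34 (SE), with an edgeR adjusted p of 0.0211. Such separation of every treated animal from every control was seen for 3 of the 10 genes, *TAGLN*, *RGS5* and *MCAM*, beside 3.49% of all genes tested.

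*NOTCH3* (ENSMMUG00000013637), the Notch receptor of mural cells, was called with overlapping groups. Its levels in *C* were 11.98, 25.3, 41.3, 47.1, 63.8 and 101 CPM, and in *T* + *WSD* they were 75.3, 88.8, 100.3, 121, 127 and 132 CPM. Control replicate 5, at 101 CPM, exceeded 3 of the *T* + *WSD* animals, and the other 5 controls lay below all of them. Its log2 fold change was 1.15 ± 0.33 (SE), with an edgeR adjusted p of 0.0220. In a fit of these 12 animals alone the adjusted p was 0.0631 and the gene was not called.

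*PDGFRB* (ENSMMUG00000011557), the receptor through which pericytes are recruited, was not called. It ran from 86.3 to 237 CPM in *C* (median 139) and from 187 to 261 CPM in *T* + *WSD* (median 209), where the spread was the smallest of the set (coefficient of variation 14.04%). Between the groups the log2 fold change was 0.54 ± 0.20 (SE), with an edgeR adjusted p of 0.0662. *CSPG4* (ENSMMUG00000016104), the proteoglycan NG2, found on pericytes of sprouting vessels, had nearly equal medians of 32.1 CPM in *C* (11.02 to 87.7) and 32.0 CPM in *T* + *WSD* (22.3 to 38.1). Its log2 fold change was -0.39 ± 0.35 (SE) and its edgeR adjusted p was 0.484.

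The controls varied more than the *T* + *WSD* animals for 9 of the 10 genes. The coefficient of variation in *C* had a median of 57.4% and reached 82.8% for *MYH11*, while in *T* + *WSD* its median was 22.2% and its highest value 30.8%, for *ACTA2*. *TAGLN* was the exception, at 9.41% in *C* and 26.6% in *T* + *WSD*. Medians in *T* and *WSD* were 29.9% and 46.9%. These spreads are descriptions, and their differences were not tested.

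Single animals held many of the extreme control values. Control replicate 5 had the highest control level of 7 genes (*ACTA2*, *MYH11*, *CNN1*, *DES*, *PDGFRB*, *NOTCH3* and *CSPG4*), and control replicate 1 the lowest of 5 (*ACTA2*, *CNN1*, *NOTCH3*, *CSPG4* and *MCAM*). Summed over the 10 genes, replicate 5 had 2012 CPM and the other controls had 824 to 1237 CPM, beside 1924 to 2705 CPM in *T* + *WSD*. Replicate 5 also had the highest summed level of 9 fibroblast genes among the controls, 25824 CPM, closely followed by replicate 6 at 24787 CPM. Replicate 1 had the highest summed level of mesothelial genes, 5036 CPM, beside 1193 to 2171 CPM in the other controls, and the lowest of adipocyte genes, 2682 CPM. The part of fibroblast and adipocyte content in the values was not tested.

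Leaving out 1 control changed the number of calls. Without replicate 5, 7 of the 10 genes were called higher in *T* + *WSD* against *C*, beside 11.7% of all genes called in that fit. The added genes were *ACTA2* (log2 fold change 1.15, edgeR adjusted p 0.0192), *MYH11* (0.92, adjusted p 0.0466) and *PDGFRB* (0.72, adjusted p 0.0118). In the same fit the log2 fold change of *DES* was -0.73, with an adjusted p of 0.247, and those of *CNN1* and *CSPG4* were 0.26 and 0.01. Without control replicate 3, only *TAGLN* and *RGS5* were called in edgeR, beside 7.41% of all genes called in that fit, and the adjusted p was 0.0557 for *NOTCH3* and 0.0537 for *MCAM*. *TAGLN* and *RGS5* were called in all 24 fits that left out 1 animal.

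Fold changes were also computed within the 16 and the 8 libraries that differ in the share of the dominant gene. In the 16 libraries, with 4 animals per group, the log2 fold change in *T* + *WSD* against *C* was 1.03 for *TAGLN*, 1.08 for *RGS5*, 0.75 for *NOTCH3* and 0.89 for *MCAM*. In the 8 libraries, with 2 animals per group, it was 1.16, 1.40, 2.18 and 1.99 for the same genes. The direction was thus the same within each set, and the values for *NOTCH3* and *MCAM* were more than 1.5 times larger in the 8 libraries, which hold control replicate 1. None of the 10 genes was called within either set, where 0.505% of all genes were called in the 16 libraries and 0 in the 8.

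**Figure D2:**
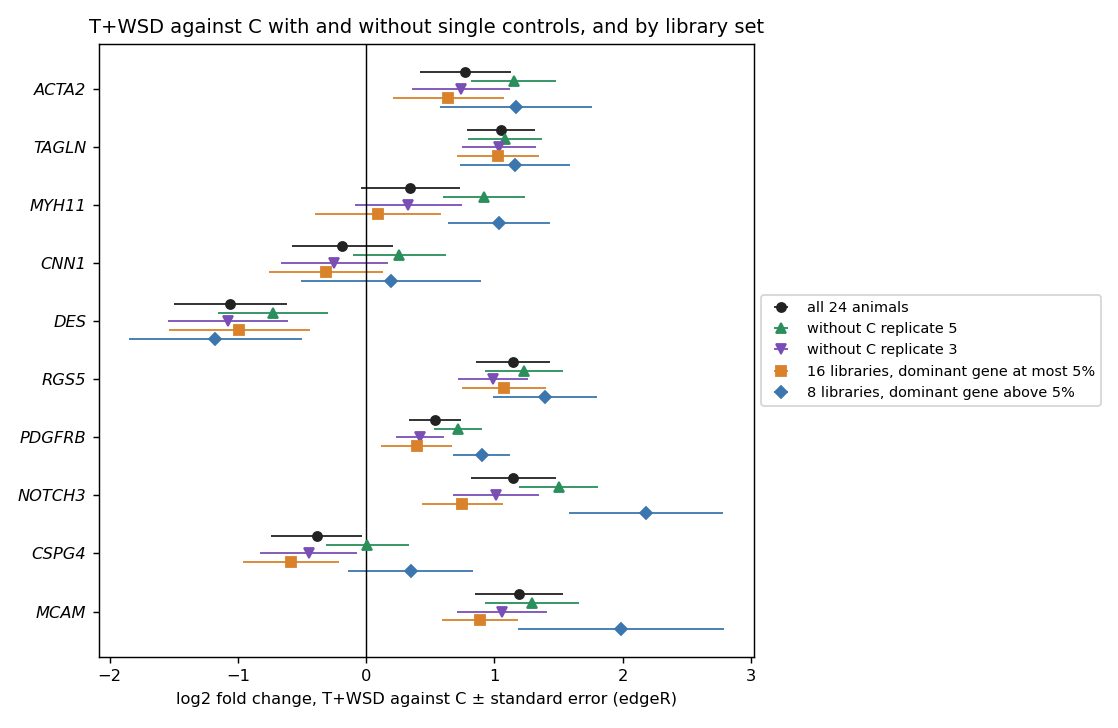
Log2 fold change (x axis) of *T* + *WSD* against *C* for each gene with its standard error, from edgeR fits to all 24 animals, without control replicate 5, without control replicate 3, and within the 16 or the 8 libraries that differ in the share of 1 dominant gene. TAGLN and RGS5 stay near 1 to 1.40 in all 5 fits, MYH11 ranges from 0.09 to 1.04, and CNN1 and CSPG4 lie on both sides of 0.

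Diet alone and testosterone alone were each set against the same 6 controls, so that these comparisons are not independent of the first. No gene was called in *WSD* against *C*, 0 of 10 and 0 of all genes tested in edgeR. At an unadjusted p under 0.05, 3 of the 10 genes passed, beside 18.5% of all genes. These were *ACTA2* with a log2 fold change of 0.78 ± 0.35 (SE), *RGS5* with 0.74 ± 0.28 and *MCAM* with 0.76 ± 0.34, and their adjusted p values in edgeR were 0.243, 0.184 and 0.239. *MCAM* in *WSD* ran from 208 to 609 CPM (median 441), with 4 of the 6 animals above every control, and *RGS5* ran from 37.5 to 115 CPM (median 51.9), with 3 above every control. The other 7 genes had log2 values between -0.57 (*DES*) and 0.51 (*NOTCH3*). DESeq2 called 238 genes in this comparison, with 0 of the 10 among them.

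In *T* against *C*, 0 of the 10 genes and 0 of all genes were called in edgeR, and 1 of the 10 passed an unadjusted p under 0.05, beside 8.63% of all genes. That gene was *ACTA2*, with a median of 242 CPM (122 to 293) and a log2 fold change of 0.84 ± 0.35 (SE), an edgeR adjusted p of 0.547. On the log2 scale, *ACTA2* thus stood 0.84 (*T*), 0.78 (*WSD*) and 0.77 (both treatments) above the shared controls, and none of the 3 values was called. *MYH11* and *CNN1* had log2 values of 0.60 ± 0.39 and 0.56 ± 0.39 (SE) in *T*, with medians of 197 CPM (88.8 to 373) and 33.3 CPM (13.5 to 39.7). *TAGLN*, at 0.00 ± 0.26 (SE), and *CSPG4*, at -0.03 ± 0.35, were closest to 0. DESeq2 called 7 genes in this comparison, and 0 of the 10.

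**Figure D3:**
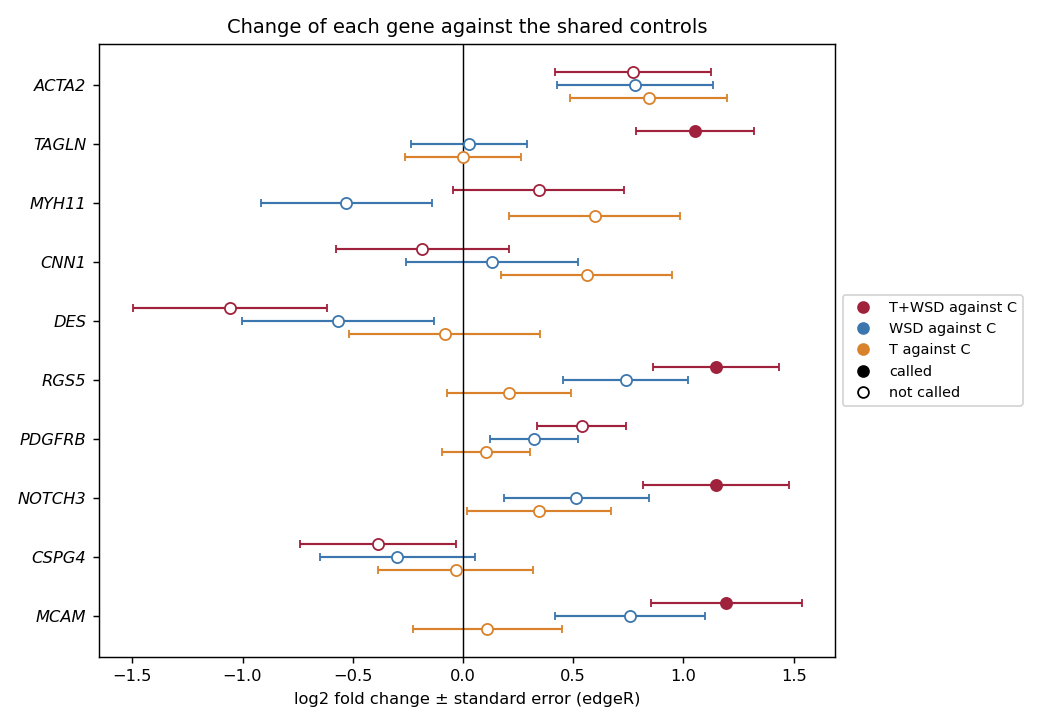
Log2 fold change (x axis) with standard error from edgeR for each gene in *T* + *WSD*, *WSD* and *T*, each against the same 6 controls. Filled points are called (adjusted p under 0.05 and fold change over 1.5). The 4 filled points, TAGLN, RGS5, NOTCH3 and MCAM, all belong to *T* + *WSD*, and the 3 values of ACTA2 lie between 0.77 and 0.84.

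The combined treatment was then set against each single treatment. Against *T*, a comparison that asks for the effect of diet in animals given testosterone, *TAGLN* and *RGS5* were called higher, beside 3.77% of all genes called in either direction and 2.34% as higher. At an unadjusted p under 0.05, 6 of the 10 genes passed, beside 25.9% of all genes. Of these, 5 were higher, beside 11.6%, and 1, *DES*, was lower (log2 -0.98 ± 0.44 SE, edgeR adjusted p 0.164). *CNN1*, *CSPG4*, *MYH11* and *ACTA2* also had negative values, from -0.75 to -0.07, and were not called. The log2 fold change was 1.05 ± 0.27 (SE) for *TAGLN*, with an edgeR adjusted p of 0.0261, and all 6 *T* + *WSD* animals lay above the highest *T* animal at 470 CPM. For *RGS5* it was 0.94 ± 0.28 (SE), with an edgeR adjusted p of 0.0489, and 5 of the 6 lay above every *T* animal. At least 5 of 6 animals lay above every *T* animal for 5 of the 10 genes, beside 6.31% of all genes. *MCAM* ran from 171 to 439 CPM in *T* (median 246), with all 6 *T* + *WSD* animals higher as for *TAGLN* (2 of the 10 genes, beside 2.99% of all genes), and its log2 fold change of 1.08 ± 0.34 (SE) had an edgeR adjusted p of 0.0573. For both *RGS5* and *MCAM* the median was highest in *T* + *WSD* and next highest in *WSD*, while *C* and *T* differed by less than their spread.

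These calls were close to the threshold. Over the 24 fits that left out 1 animal, the edgeR adjusted p of *RGS5* in *T* + *WSD* against *T* ran from 0.0305 to 0.1004 and the call was kept in 8 fits, while that of *TAGLN* ran from 0.0187 to 0.0657 and the call was kept in 20. In a fit of these 12 animals alone, *NOTCH3* and *MCAM* were called as well, and 7.27% of all genes were called. DESeq2 called *TAGLN*, *RGS5* and *MCAM*, beside 1090 of the 17862 genes to which it gave an adjusted p.

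Against *WSD*, which asks for the effect of testosterone in animals on the diet, 0 of the 10 genes were called, beside 0.815% of all genes. At an unadjusted p under 0.05 there were 2 of 10, beside 20% of all genes. *TAGLN* had a log2 fold change of 1.02 ± 0.27 (SE) and an edgeR adjusted p of 0.0502, with 5 of 6 *T* + *WSD* animals above every *WSD* animal, and DESeq2 called it with an adjusted p of 0.00780. *MYH11* had a log2 fold change of 0.87 ± 0.39 (SE) and an edgeR adjusted p of 0.211, also with 5 of 6 above every *WSD* animal, which ran from 51.1 to 135 CPM (median 97.4). *RGS5*, *PDGFRB* and *MCAM* had log2 values of 0.41, 0.21 and 0.44 with edgeR adjusted p values of 0.436 to 0.586, and their groups overlapped.

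The interaction asks whether the effect of testosterone differed between the diets. At the study's threshold, an adjusted p under 0.1, 0 of the 10 genes were called in edgeR, beside 0.809% of all genes, and 1 of 10 passed an unadjusted p under 0.05, beside 13.5%. *TAGLN* was that gene, with an interaction of 1.03 ± 0.37 (SE) on the log2 scale and an edgeR adjusted p of 0.223. DESeq2 also called 0 of the 10. The interaction was thus not shown for any of the 10 genes, which does not speak to the calls of *TAGLN* and *RGS5* against *T*.

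Genes of related function that are not in the set were described from lists. Of 21 contractile and actin-binding genes tested, 3 were called higher and 1 lower in *T* + *WSD* against *C*. Over all genes tested, 4.72% were called higher and 5.29% lower. The median log2 fold change of the list was -0.04, equal to that of all genes at this rounding. *MYLK*, the kinase that phosphorylates the myosin light chain and so starts smooth muscle contraction, had 189 ± 97.5 CPM in *C* and 488 ± 106 CPM in *T* + *WSD* (SD, n = 6), and rose by 1.37 on the log2 scale (edgeR adjusted p 0.0103). *MYL9*, that light chain, rose from 115 ± 22.04 to 202 ± 37.7 CPM (log2 0.81, adjusted p 0.00694), and *MRTFB*, a co-activator of contractile gene transcription, rose with a log2 value of 0.90 (adjusted p 0.00586). *LMOD1*, a smooth muscle actin nucleator, fell from 115 ± 48.2 to 57.5 ± 8.28 CPM, a change of -0.997 on the log2 scale (edgeR adjusted p 0.0252). *MYLK* and *LMOD1*, both abundant in smooth muscle, thus moved in opposite directions.

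Of 14 further pericyte genes tested, 2 were called higher and 0 lower, beside 4.72% and 5.29% of all genes, with a median of 0.27. The list was mixed in direction, with 10 positive values of 14, beside 45.1% of all genes. *ABCC9* had the lowest value, -0.999, and was not called (edgeR adjusted p 0.0725). Its level was 119 ± 88.0 CPM in *C* and 59.3 ± 16.5 CPM in *T* + *WSD* (SD, n = 6). *AGTR1*, the angiotensin II receptor, had a log2 fold change of 0.88 and an edgeR adjusted p of 0.0148, and *EBF1*, a transcription factor of mural and adipose precursor cells, had 0.72 and 0.0299. Of 15 Notch and PDGF ligands, receptors and targets, 3 were called higher and 0 lower, beside the same shares, with a median of 0.37. *NOTCH4*, the endothelial Notch receptor, had 23.5 ± 8.57 CPM in *C* and 52.5 ± 9.08 CPM in *T* + *WSD* (SD, n = 6), and rose by 1.16 on the log2 scale (edgeR adjusted p 0.00322). *HEY1*, a Notch target, rose with a log2 value of 0.93 (adjusted p 0.0127), and *JAG2*, a Notch ligand, with 0.84 (adjusted p 0.0156). Between *T* + *WSD* and *T*, 2.34% of all genes were called higher in edgeR. In that comparison 1 gene of the contractile list and 1 of the Notch and PDGF list were called, both higher, and 0 of the pericyte list. They were *MRTFB* (log2 0.68, adjusted p 0.0412) and *PDGFD*, a PDGF ligand (1.21, 0.00631), the latter named after its values were seen. Between *T* + *WSD* and *WSD*, 0 genes of these lists were called in edgeR, beside 0.815% of all genes. At an unadjusted p under 0.05 there were 4 higher and 2 lower of the contractile list and 1 higher of each of the others. Over all genes tested this share was 20% in either direction. In *WSD* or *T* against *C* no gene of these 3 lists was called in edgeR, as was true of all genes tested.

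Markers of other cell types also moved between *T* + *WSD* and *C*, where 4.72% of all genes were called higher and 5.29% lower. Of 11 endothelial genes, 7 were called higher, and the median log2 fold change of the list was 0.72. The summed level of the 11 was 1080 to 1806 CPM in *C* and 2048 to 3159 CPM in *T* + *WSD*, without overlap. The leading genes were *PECAM1* (0.88, edgeR adjusted p 0.00294), *ESAM* (0.84, 0.00704), *VWF* (0.97, 0.00740) and *ROBO4* (0.73, 0.00990). Of 9 mesothelial genes, which mark the cells that cover the omentum, 8 fell, with a median of -2.36, and the summed level was 1193 to 5036 CPM in *C* and 111 to 664 CPM in *T* + *WSD*. *KRT19*, *KRT18*, *KRT8* and *PKHD1L1*, with log2 values of -2.66, -3.15, -2.76 and -2.02, had the smallest p values of that list. No gene of either list was at 0 in all animals of a group, and the part of the endothelial markers in the values of the 10 genes was not tested.

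Of 8 striated muscle genes tested, 3 were called higher, *TTN* (log2 2.06, edgeR adjusted p 0.00294), *TNNT3* (0.83, 0.0317) and *NEB* (2.77, 0.0429). All 8 genes of the list had positive values, beside 45.1% of all genes, with a median of 2.41. At an unadjusted p under 0.05, 7 were higher, beside 13.7% of all genes. The summed level of the 8 was 75.0 to 183 CPM in *C* and 343 to 759 CPM in *T* + *WSD*, and most of it was *TTN*. *ACTA1*, *CKM* and *MYL1*, which define skeletal muscle fibres, had mean levels of 7.15 CPM or less in both groups. Their log2 fold changes were 2.98, 3.59 and 3.15, with edgeR adjusted p values of 0.134, 0.0876 and 0.135. In *T* + *WSD* their SD also exceeded the mean, at 7.15 ± 11.3, 3.08 ± 4.52 and 2.05 ± 3.32 CPM (SD). Of 9 fibroblast genes 1 was called higher (*DPT*, 0.98, edgeR adjusted p 0.0231), beside 4.72% of all genes. Of 7 adipocyte genes 2 were called higher (*FABP4*, 0.82, 0.0429, and *LEP*, 2.20, 0.0442), beside the same share. Of 5 macrophage genes 0 were called in edgeR and 0 passed an unadjusted p under 0.05, beside 32.1% of all genes. *CD163* and *CD68* had log2 values of 0.51 and 0.83 with adjusted p values of 0.199 and 0.206.

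**Figure D4:**
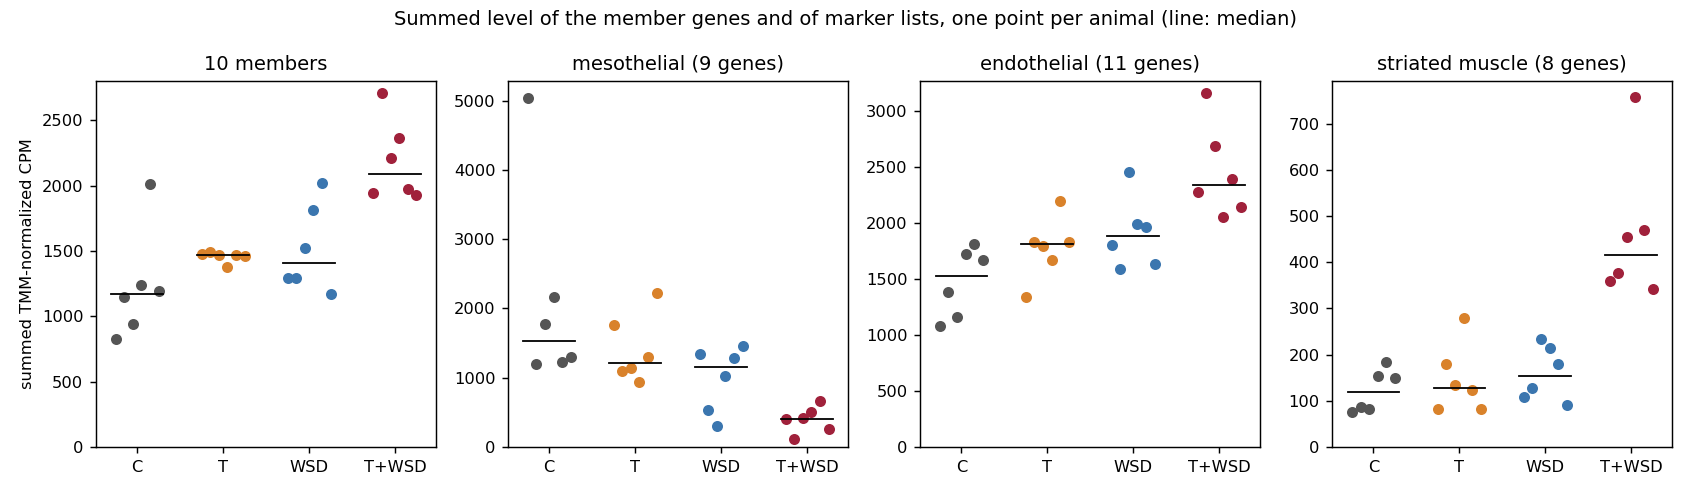
Summed level (TMM-normalized CPM, y axis from 0) of the 10 smooth muscle and pericyte genes and of the mesothelial, endothelial and striated muscle lists by group, with 1 point per animal and a line at the median. *T* + *WSD* animals lie above all controls for the endothelial list (2048 to 3159 CPM) and the striated muscle list (343 to 759 CPM) and below all controls for the mesothelial list (111 to 664 CPM), while 1 control, at 2012 CPM, overlaps them for the 10 genes.

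With the mean log2 level of the mesothelial list as a covariate, 0 of the 10 genes and 0 of all genes were called in *T* + *WSD* against *C*. The log2 fold change of *TAGLN* was then 1.37 ± 0.43 (SE), and those of *RGS5*, *MCAM* and *NOTCH3* were 0.58, 0.57 and 0.49. *DES* went from -1.06 to 0.08 and *MYH11* from 0.34 to -0.13 in that fit. The summed mesothelial level did not overlap between *T* + *WSD* and *C*, while *WSD*, at 299 to 1464 CPM, overlapped both. The part of the mesothelial level and that of the treatment in *T* + *WSD* against *C* cannot be told apart in these animals.

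How the 10 genes varied together was described among animals of the same group, after the group mean of each gene was taken away from its log2 level (24 animals, 45 pairs). Pairs within the signalling and surface genes had a median Pearson r of 0.67 (0.47 to 0.77), and pairs within the contractile and filament genes a median of 0.40 (-0.08 to 0.65). Pairs between these sets had a median of 0.09 (-0.41 to 0.39). After Benjamini-Hochberg adjustment over the 45 pairs, 6 of 10 pairs of the first set, 2 of 10 of the second and 0 of 25 between them had a two-sided permutation p under 0.05.

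The strongest pair was *PDGFRB* and *NOTCH3*, with r = 0.77 (permutation p 0.00119, adjusted p 0.0233) and rho = 0.81 (adjusted p 0.0045). It had r = 0.68 without the 2 animals farthest from the median of *PDGFRB*, 0.92 in the 16 libraries and 0.78 in the 8. For every pair, the 2 farthest animals were picked on the first gene named only. *RGS5* and *MCAM* followed with r = 0.75 (permutation p 0.00046, adjusted p 0.0207) and rho = 0.76 (adjusted p 0.00562). Their r was 0.76 without the 2 farthest animals, 0.82 in the 16 libraries and 0.94 in the 8. *NOTCH3* with *CSPG4* and *NOTCH3* with *MCAM* had r values of 0.72 and 0.70. These dropped to 0.38 and 0.45 without the 2 animals farthest from the median of *NOTCH3*, and therefore rested in large part on them.

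Of the contractile and filament genes, *ACTA2* and *CNN1* had r = 0.65 (permutation p 0.00338, adjusted p 0.0368) and rho = 0.59 (adjusted p 0.0538), with r = 0.56 without the 2 farthest animals, 0.78 in the 16 libraries and 0.25 in the 8. *CNN1* and *DES* had r = 0.62 (permutation p 0.00835, adjusted p 0.0495) and rho = 0.49 (adjusted p 0.147), with r = 0.44 without the 2 farthest animals, 0.78 in the 16 libraries and 0.77 in the 8. *TAGLN* passed with no other gene, and its highest r was 0.39, with *DES*. The lowest r of all pairs was -0.41, between *DES* and *RGS5* (permutation p 0.0931, adjusted p 0.259, rho -0.41), which was -0.35 in the 16 libraries and -0.63 in the 8. In the 16 libraries alone, 1 of the 45 pairs, *PDGFRB* and *NOTCH3*, had an adjusted permutation p under 0.05.

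**Figure D5:**
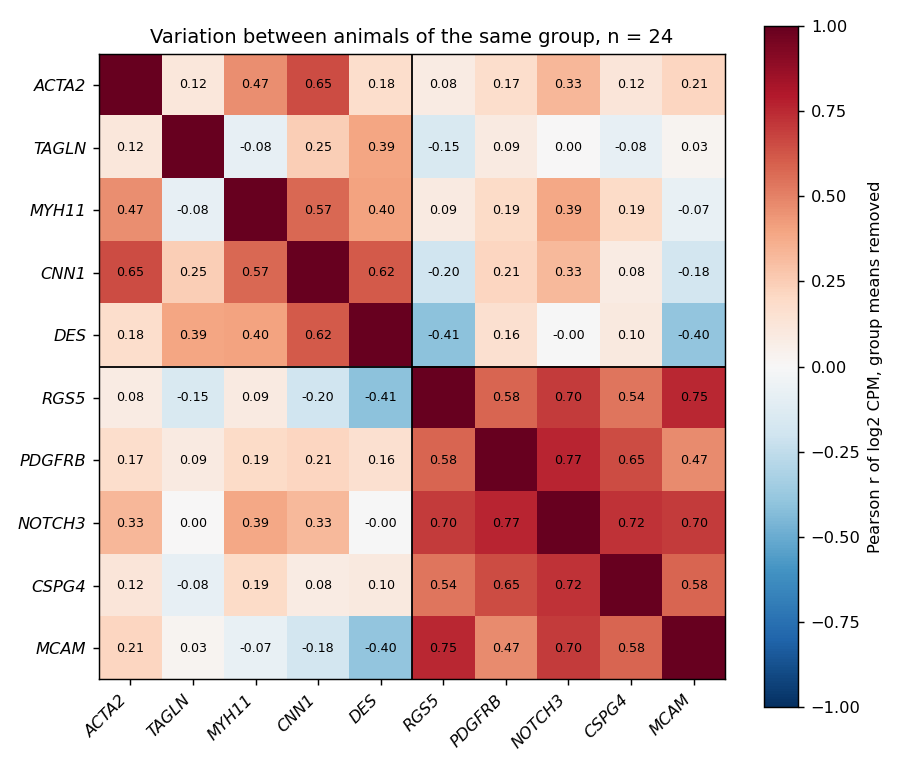
Pearson r (color and printed value) between the log2 levels of the 10 genes among animals of the same group (group means removed, n = 24). Lines separate the contractile and filament genes from the signalling and surface genes. The latter block holds r values from 0.47 to 0.77, and the blocks between the sets run from -0.41 to 0.39.

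Other genes with the most similar pattern were found by their r with the mean standardized residual of each set over the 24 animals. They were picked for this r, which is a description with no test. For the contractile and filament genes they were *ACTG2* (r = 0.77), the smooth muscle gamma-actin, *CCN2* (0.77), a matrix-associated signalling protein, *SYTL2* (0.76), *RIPOR1* (0.70), *PCBP1* (0.69) and *AXL* (0.68), and none of these 6 was called in *T* + *WSD* against *C*. For the signalling and surface genes they were *PCDH1* (r = 0.91), a protocadherin, *PLXND1* (0.90), a semaphorin receptor, *TES* (0.89), *LAMC1* (0.88), a laminin chain of basement membranes, *CXXC5* (0.88) and *NDUFA4L2* (0.87), which is used as a pericyte marker. Of these, *PCDH1* (log2 fold change 1.11, edgeR adjusted p 0.00616) and *LAMC1* (0.82, adjusted p 0.0217) were called higher in *T* + *WSD* against *C*. In the 16 libraries the r of these 12 genes ran from 0.75 to 0.88. These libraries are among the 24 used to pick the genes, so that this r is no separate check.

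4 of the 10 genes overlap another annotated gene. By RefSeq gene models of the rhesus genome, *MYH11* shares ground with *NDE1*, *CNN1* with *ECSIT* and a further gene, and *TAGLN* and *RGS5* each with a long non-coding RNA. Only the spans from gene start to gene end were compared, and overlap of exons was not checked. The strand setting of the counting is not given in the sources used here. Whether reads of an overlapping gene entered these counts was therefore not tested.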

How the data were processed

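RNA was extracted from frozen omental WAT (1 library per animal, RIN above the study's limit), cleared of ribosomal RNA and read from 1 end. The authors trimmed the reads with Trimmomatic 0.36, aligned them to rheMac8 with STAR 2.5.2b and deposited 1 table of raw, unnormalized gene counts. The submitters' processing notes also name FastQC 0.11.5 and DESeq2 1.18.1. The counting tool and its strand setting are not given in the sources used here. The table holds 32386 genes and 24 columns of animals, and no other value columns. Groups came from the sample labels. Among 60 within-group library pairs, 0 held identical values. Total counts ran from 6899185 to 28270776 per library, so the values of the 10 genes rest on 75 or more reads and their precision is limited by the spread between animals.

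Gene symbols came from a gene name table and, for 188 of 12602 tested genes with a symbol, from the supplementary tables of the study. Counts were normalized with TMM and tested in edgeR 4.0.16, run in R 4.3.3, with quasi-likelihood F-tests (robust=TRUE, legacy=TRUE) in 1 fit of 4 groups. The filter filterByExpr (minimum count 10, minimum total 15) kept 15207 genes, and p values were adjusted over all of them (Benjamini-Hochberg, two-sided). A gene was called at a fold change over 1.5 with an adjusted p under 0.05, or, for the interaction, under 0.1 with no fold limit. The script was tested on simulated data. Correlations used 100000 permutations within groups.

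Named genes were all 10 members, up to 4 called genes of each list with the smallest p in *T* + *WSD* against *C* (or, where none was called, the 2 with the smallest p), and the 6 genes most like each of the 2 sets of members. *ACTA1*, *CKM*, *MYL1*, *ABCC9*, *ADIPOQ*, *PLIN1* and the dominant gene were added after values were seen. The members and lists were chosen with earlier results of these data known. *PDGFRA* stands in both the Notch and PDGF list and the fibroblast list. *PLN*, *KCNMB1*, *KCNJ8*, *HIGD1B*, *COX4I2*, *HES1*, *HEY2*, *HEYL*, *LRRN4*, *PNPLA2*, *C1QA*, *C1QB* and *MYH2* were not matched by symbol and *MYH7* did not pass the filter, so they were not analysed here. No sequences or gene lengths were used here.

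The alternatives were DESeq2 1.42.0, edgeR with RLE size factors or upper-quartile scaling, no filter on low counts, only the groups compared, robust=FALSE, legacy=FALSE, the share of the dominant gene (above 5% or not) as a covariate, only the 16 libraries below that limit, removal of the dominant gene, the mesothelial mean as a covariate, fold limits of 2 or none, an interaction limit of 0.05, and each animal left out in turn. Fits to the 8 libraries above the limit, and all alternatives for the related lists, were chosen after seeing the data. Supplementary fold changes and p-values of the authors were not used.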

Additional observations from a re-analysis of the deposited data

Results flagged for a closer look

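In each of 40 sets of 6 animals (10 genes in 4 groups), the gap between the highest or lowest animal and its nearest neighbour was compared with the whole range of the set. In 3 sets the gap was wider than Dixon's 95% critical value for 6 animals, and chance alone marks about 1 in 20 sets. All 3 belonged to control replicate 5. It had 278.94 CPM of *ACTA2*, with the next control at 138.87 CPM, 366.02 CPM of *MYH11*, with the next at 131.67 CPM, and 46.263 CPM of *CNN1*, with the next at 22.16 CPM. This library had 20409208 counts, near the median of all libraries, and its dominant gene took 1.69% of them. The 3 genes encode contractile proteins of smooth muscle.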

How the results depend on the processing

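No paired analysis was possible because the groups share no replicate numbers. The p values measure the spread between animals, with 6 per group. The number of the 10 genes called in *T* + *WSD* against *C*, 4, became 0 in the 16 libraries, in the 8 libraries and with the mesothelial covariate, and ran from 2 (without control replicate 3) to 7 (without control replicate 5) with 1 animal left out. It was within 1.5 times of 4 under every other alternative run, DESeq2 included, which called the same genes. All 4 kept a positive value in every alternative, with log2 values from 0.93 to 1.37 for *TAGLN*, 0.58 to 1.40 for *RGS5*, 0.49 to 2.18 for *NOTCH3* and 0.57 to 1.99 for *MCAM*. With fewer animals the fits have fewer degrees of freedom, and the cause of the changes was not tested. In *T* + *WSD* against *WSD* the count of 0 became 1 (*TAGLN*) under DESeq2, RLE, upper-quartile, robust=FALSE, legacy=FALSE and removal of the dominant gene, and was 0 to 1 with 1 animal left out, being 1 without *C* replicate 1, *T* replicate 16 or *WSD* replicates 19, 22 or 23. In *T* + *WSD* against *T* the count of 2 became 1 without the filter, in the 16 libraries and at a fold change over 2, 0 in the 8 libraries and with the mesothelial covariate, 4 with only the 2 groups compared, and 0 to 3 with 1 animal left out, being 0 without *T* replicate 16 or *T* + *WSD* replicates 8 or 10. *WSD* and *T* against *C* and the interaction kept 0 calls of the 10 genes under every alternative. DESeq2 called 1894 of all genes in *T* + *WSD* against *C*, 238 in *WSD* against *C*, 7 in *T* against *C*, 431 in *T* + *WSD* against *WSD*, 1090 in *T* + *WSD* against *T* and 481 for the interaction, beside 1522, 0, 0, 124, 574 and 123 in edgeR.

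Called genes of the contractile and actin-binding list (4), the pericyte list (2) and the Notch and PDGF list (3) fell to 0 in the 8 libraries and with the mesothelial covariate, and to 0, 0 and 1 in the 16 libraries. The pericyte count was also 4 under DESeq2, 1 with only the 2 groups compared, and 1 to 3 with 1 animal left out, being 1 without *C* replicates 1 or 3 or *T* + *WSD* replicates 7 or 8. The number of correlated pairs went from 8 to 1 in the 16 libraries.

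Changes of sign concerned values that were not called. In *T* + *WSD* against *C* they were *CNN1* (0.20) and *CSPG4* (0.35) in the 8 libraries, *MYH11* (-0.13) and *DES* (0.081) with the mesothelial covariate, and, with 1 animal left out, *CNN1* (-0.30 to 0.26) and *CSPG4* (-0.56 to 0.0094), both positive without control replicate 5. In *WSD* against *C* they were *TAGLN* under upper-quartile normalization (-0.0012) and in the 8 libraries (-0.043), *CNN1* in the 16 libraries (-0.32), and, with 1 animal left out, *TAGLN* (-0.15 to 0.15), *MYH11* (-0.69 to 0.051), *CNN1* (-0.25 to 0.58) and *CSPG4* (-0.53 to 0.099). In *T* against *C* they were *TAGLN* without the filter (0.0080), without the dominant gene (0.0059), with the mesothelial covariate (0.053) and in the 8 libraries (0.48), *DES* with that covariate (0.095) and in the 8 libraries (0.53), *PDGFRB* (-0.018) and *MCAM* (-0.20) in the 16 libraries, and *CSPG4* with the share of the dominant gene as a covariate (0.062) and in the 8 libraries (0.85). With 1 animal left out, they were *TAGLN* (-0.11 to 0.12), *DES* (-0.44 to 0.25), *PDGFRB* (-0.013 to 0.28), *CSPG4* (-0.23 to 0.37) and *MCAM* (-0.092 to 0.27).

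In *T* + *WSD* against *WSD*, *ACTA2* was positive under DESeq2 (0.016), RLE (0.017), upper-quartile normalization (0.058), without the dominant gene (0.0075), with only the 2 groups compared (0.017) and in the 16 libraries (0.12). *CNN1* was at 0.0016 in the 16 libraries, *DES* at 0.41 with the mesothelial covariate and *CSPG4* at 0.56 in the 8 libraries, and leaving out 1 animal moved *ACTA2* from -0.17 to 0.21, *CNN1* from -0.49 to 0.061 and *CSPG4* from -0.22 to 0.14. In *T* + *WSD* against *T*, *ACTA2* (0.35) and *MYH11* (0.52) were positive in the 8 libraries, and *ACTA2* ran from -0.20 to 0.028 with 1 animal left out. For the interaction, the mesothelial covariate gave *DES* 0.31, *RGS5* -0.038, *PDGFRB* -0.0035 and *NOTCH3* -0.087, the 16 libraries gave *DES* 0.042 and *CSPG4* 0.040, and upper-quartile normalization gave *CSPG4* 0.0088. Leaving out 1 animal moved the interaction from -0.31 to 0.52 for *MYH11*, -0.072 to 0.25 for *PDGFRB*, -0.069 to 0.50 for *NOTCH3* and -0.45 to 0.17 for *CSPG4*.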
